A study of Mus musculus with 48 samples.

Results

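The RNA of 8 genes that store cholesterol as ester, split the ester again and carry the freed cholesterol out of the lysosome was followed in the livers of LXRα mutant mice. The genes were Soat1, Soat2, Lipa, Npc1, Npc2, Nceh1, Stard4 and Osbpl3. They were chosen by symbol, found by their Ensembl identifiers, and make up 8 of the 55416 genes listed in the count tables. LXRα, the product of Nr1h3, is a nuclear receptor that responds to oxysterols. Livers came from a dominant negative knock-in (DN), in which LXRα carries the W441R change, and from an LXRα knockout (KO). Each study held 8 wild-type (DN:WT, KO:WT), 8 heterozygous (DN:HET, KO:HET) and 8 homozygous mice (DN:HOM, KO:HOM), labelled C57Bl/6J. All 48 mice ate a western diet with 0.2% cholesterol for 8 weeks, so no group shows the genes without the diet. In both studies the diet began at about 8 weeks of age and ran to about 16 weeks, and the knock-in mice were males. The knock-in colony goes back to a single founder made with CRISPR-Cas9, and the knockout mice were kept at another site and had been backcrossed from a mixed background, so line and site cannot be told apart between the studies. Both alleles are germline changes present in every cell type of the liver.

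Free cholesterol is harmful to membranes in excess, and cells keep the surplus as cholesterol ester in droplets. Soat1 and Soat2 encode the enzymes of the endoplasmic reticulum that join cholesterol to a fatty acid. Soat2 is the enzyme of hepatocytes and enterocytes, and Soat1 is widely expressed and well known from macrophages that turn into foam cells. Esters that reach the lysosome with lipoproteins are split by the acid lipase made from Lipa, and the soluble protein Npc2 hands the cholesterol to the membrane protein Npc1, through which it leaves. Nceh1 encodes a hydrolase that splits cholesterol ester outside the lysosome. Stard4 encodes a soluble sterol carrier, itself a target of the transcription factor SREBP-2, and Osbpl3 an oxysterol-binding protein relative at membrane contacts.

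The starts of Soat1, Npc2 and Osbpl3 are printed because the RNA of these genes was higher in DN:HOM than in DN:WT livers (values follow). Each line holds the 250 bases before the gene's start from RefSeq on GRCm38.p6, 5′ to 3′ on the gene's strand, with CG dinucleotides in capitals. The counts themselves are on GRCm39, and positions of the 2 builds are not interchangeable. All 3 regions lie on the minus strand, at chr1:156474329-156474578 (Soat1), chr12:84773113-84773362 (Npc2) and chr6:50456171-50456420 (Osbpl3).
Soat1: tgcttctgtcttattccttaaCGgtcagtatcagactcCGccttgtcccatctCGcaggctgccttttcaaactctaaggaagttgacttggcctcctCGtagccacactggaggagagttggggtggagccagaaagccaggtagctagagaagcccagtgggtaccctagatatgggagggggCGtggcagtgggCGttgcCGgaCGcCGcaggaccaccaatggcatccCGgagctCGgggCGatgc
Npc2: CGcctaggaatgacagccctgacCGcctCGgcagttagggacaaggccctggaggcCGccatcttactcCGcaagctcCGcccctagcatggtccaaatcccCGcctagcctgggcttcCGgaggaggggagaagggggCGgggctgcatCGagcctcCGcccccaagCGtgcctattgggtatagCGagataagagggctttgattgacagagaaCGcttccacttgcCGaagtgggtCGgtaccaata
Osbpl3: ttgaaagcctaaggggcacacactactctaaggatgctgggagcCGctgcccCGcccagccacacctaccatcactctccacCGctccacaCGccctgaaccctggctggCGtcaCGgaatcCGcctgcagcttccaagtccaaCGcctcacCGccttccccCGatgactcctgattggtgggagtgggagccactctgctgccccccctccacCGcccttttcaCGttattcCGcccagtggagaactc

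The 3 regions hold 12 (Soat1), 16 (Npc2) and 13 (Osbpl3) CG dinucleotides, where the median over all promoters of the table is 6. Of the 8 genes, 5 were in the promoter table, Lipa and Nceh1 besides these 3, and Soat2, Npc1 and Stard4 were not. Lipa had 5 CG dinucleotides in the same 250 bases and Nceh1 had 15. Windows of 250 bases before and 50 after the start were searched on both strands for the E-box CACGTG, the longer CLEAR core TCACGTGA that contains it, the sterol regulatory element core TCACCCCAC, the DR4 repeat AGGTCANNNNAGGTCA with up to 2 mismatches, and the PU.1 core GAGGAAGT. Among all 32544 promoters, 7.17% hold the E-box, 0.983% the CLEAR core, 0.556% the sterol regulatory element core, 3.03% the DR4 repeat and 3.11% the PU.1 core. Nceh1 had an E-box 26 bases before its start and a PU.1 core on the opposite strand, and the other 4 windows held none of these letters.

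Reads on genes lay between 5332897 and 16961379 per liver (median 15879972), with 46 of 48 livers at 13876351 or more and KO:HET animal 3 and KO:HOM animal 17 below 10000000. Nr1h3 was at 25.2 to 31.1 CPM (a gene's read count scaled to the library) in KO:HOM and 81.4 to 108 CPM in KO:WT livers. The knock-in changes a single codon, so the Nr1h3 level does not show the DN allele itself. Nr1h3 fell by 0.32 ± 0.061 on the log2 scale in DN:HOM with 46 livers (adjusted p = 1.5e-05) and by 0.26 ± 0.062 with all 48 (adjusted p = 0.00099). At this gene the liver labelled DN:WT animal 10 (71.2 CPM) lay below the other DN:WT livers (82.0 to 96.8), and the liver labelled DN:HOM animal 12 (86.8 CPM) above the other DN:HOM livers (68.4 to 77.3). Those livers are also not behind the study's source data for bile acid genes, and for that reason fits on the other 46 livers are given first and fits on all 48 beside them, and no liver was moved to another group.

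In DN:HOM livers Soat1, Npc2 and Osbpl3 rose and Soat2, Lipa and Stard4 fell against DN:WT, while Npc1 and Nceh1 did not pass the test (edgeR's quasi-likelihood test, Benjamini-Hochberg adjusted p under 0.05). That is 6 of 8 genes, where 59.1% of the 15711 genes tested were called, 29.1% higher and 30% lower. In KO:HOM livers Soat1 and Npc2 rose and Soat2 and Stard4 fell against KO:WT, 4 of 8 genes where 19.4% of all genes were called, 11.5% higher and 7.87% lower. Levels of wild-type and homozygous livers were fully apart in the 46 livers for 5 of 8 genes in the knock-in (33.6% of all genes) and for 2 of 8 in the knockout, Soat1 and Stard4 (2.56% of all genes). With all 48 livers 0 of 8 were apart in the knock-in (0.115% of all genes). With all 48 livers the same 6 genes were called in DN:HOM (48% of all genes) and 3 of the 4 in KO:HOM (12.9%), where Npc2 was lost. Every one of the 8 genes passed the filter on low counts. In whole liver, fewer cells of a type and less RNA per cell cannot be told apart.

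**Figure D1:**
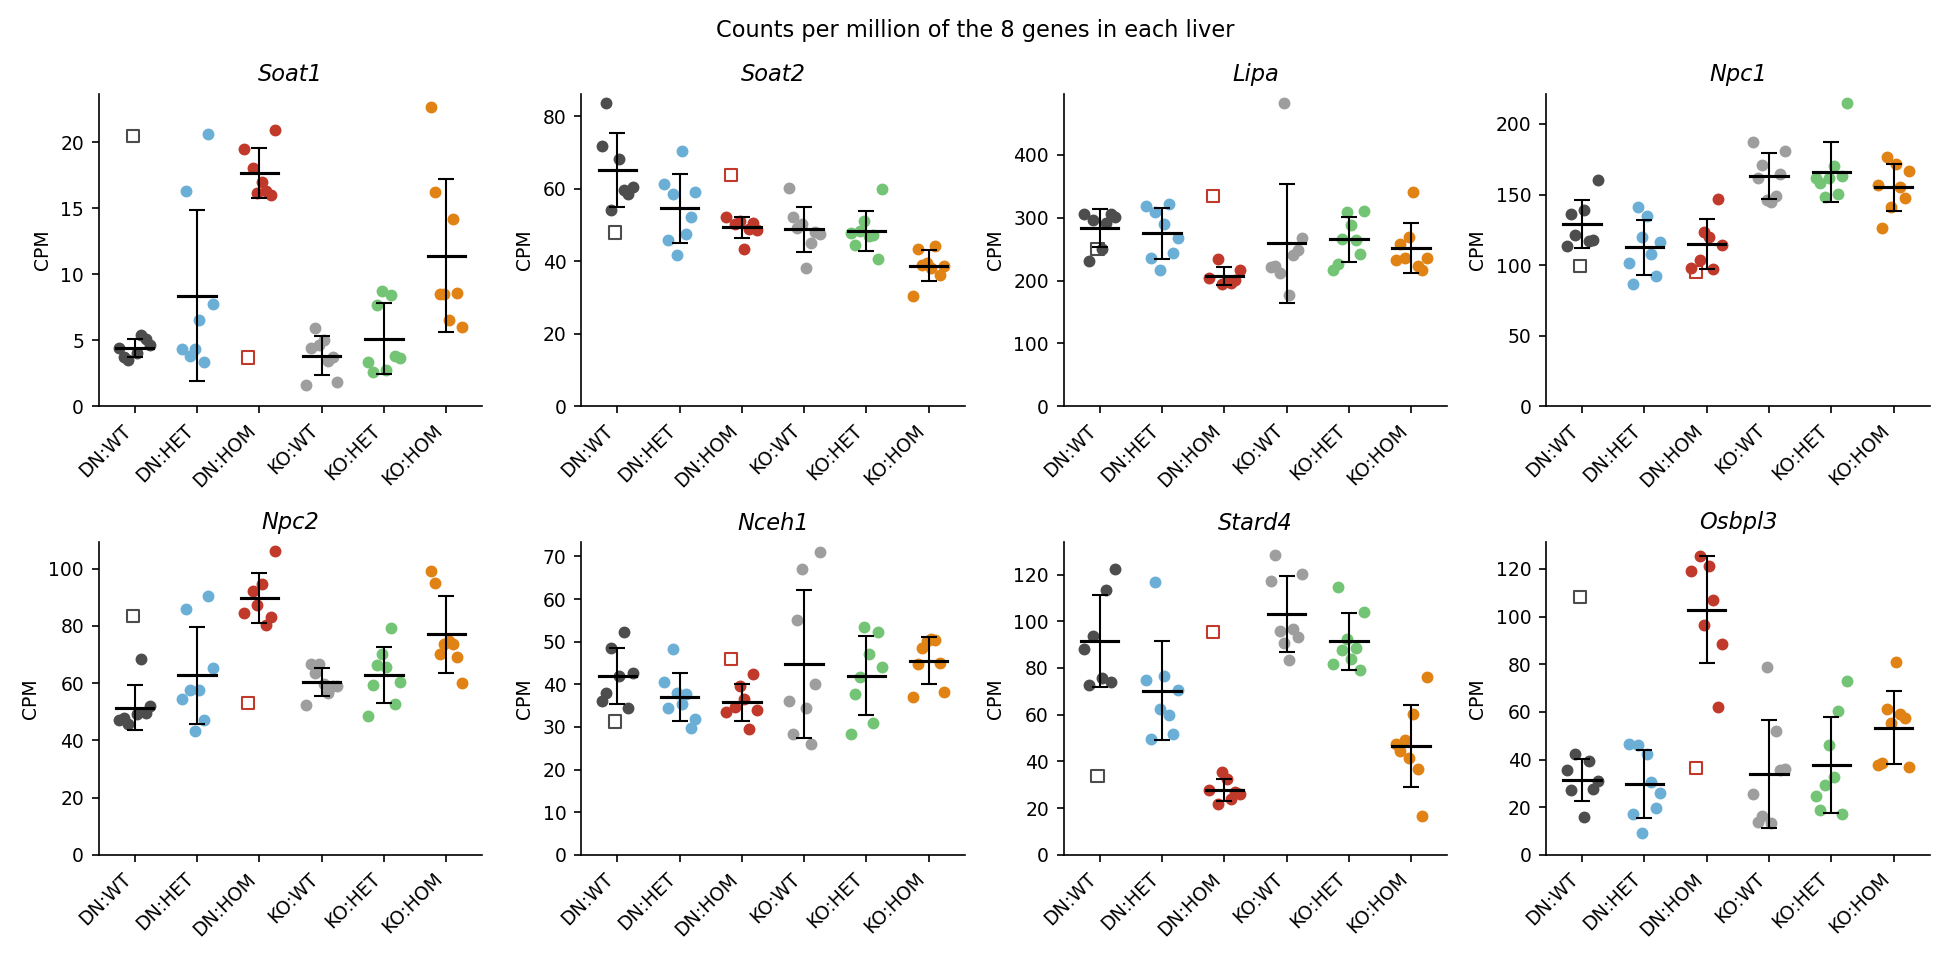
CPM of the 8 genes (vertical axes, each from 0) in every liver of the 6 groups. Points are livers, bars the mean and SD of the 46 livers, and open squares the livers labelled DN:WT animal 10 and DN:HOM animal 12, which lie within the range of the opposite group for Soat1, Soat2, Npc2, Stard4 and Osbpl3. Soat1 lies between 15.96 and 20.9 in the other DN:HOM livers and between 3.48 and 5.40 in the other DN:WT livers.

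Of the esterifying enzymes, Soat1 (ENSMUSG00000026600, chromosome 1, 156252095 to 156303864 on GRCm39) had the larger change. Its level was 3.48, 4.45 and 5.40 CPM (lowest, median, highest) in 7 DN:WT livers and 15.96, 16.98 and 20.9 CPM in 7 DN:HOM livers, with no overlap among these. Soat1 rose by 2.01 ± 0.34 (SE) on the log2 scale, 4.04-fold, in DN:HOM (adjusted p = 2.4e-06 in edgeR). The liver labelled DN:WT animal 10 was at 20.5 CPM and the liver labelled DN:HOM animal 12 at 3.70 CPM, and with them the difference was 1.30 ± 0.38 (adjusted p = 0.0050). In the knockout, Soat1 was at 1.65, 4.07 and 5.92 CPM in KO:WT and at 6.04, 8.55 and 22.6 CPM in KO:HOM livers. Here it rose by 1.58 ± 0.32, 2.98-fold (adjusted p = 0.00038). The KO:HOM livers were spread widely, with animals 26, 11 and 8 at 14.2, 16.3 and 22.6 CPM and the other 5 between 6.04 and 8.55. These levels rest on 24 to 463 reads per liver in the wild-type and homozygous groups.

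Soat2 (ENSMUSG00000023045, chromosome 15, 102058797 to 102071904) moved the other way and by less. It was at 54.3, 60.5 and 83.6 CPM in DN:WT and at 43.5, 50.2 and 52.2 CPM in DN:HOM livers, again with no overlap among the 46 livers. Soat2 fell by 0.39 ± 0.096 on the log2 scale in DN:HOM (adjusted p = 0.00054), a level 0.764 times that of DN:WT. The liver labelled DN:WT animal 10 was at 47.9 CPM and the liver labelled DN:HOM animal 12 at 63.7 CPM, so the groups overlap with them, and the fall was then 0.30 ± 0.098 (adjusted p = 0.010). The KO:WT livers held 38.2, 48.7 and 60.1 CPM and the KO:HOM livers 30.3, 38.9 and 44.2 CPM, a fall of 0.34 ± 0.091 (adjusted p = 0.0052) with overlapping groups. These falls depend on the scaling between libraries: with library size alone, which adds 0.43 to the median log2 fold change of all genes in DN:HOM and 0.12 in KO:HOM, the Soat2 difference was 0.04 in DN:HOM (adjusted p = 0.75) and -0.23 in KO:HOM (adjusted p = 0.096).

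Per length of the annotated canonical transcript, Soat2 stayed the more abundant RNA of the pair in each liver. Soat1 made up 1.93% ± 0.449 (SD, n = 7) of Soat transcripts in DN:WT and 9.24% ± 0.977 (n = 7) in DN:HOM livers. With the livers labelled DN:WT animal 10 (10.8%) and DN:HOM animal 12 (1.62%) the shares were 3.04% ± 3.16 and 8.29% ± 2.84 (n = 8 each). The DN:HET share was 4.25% ± 3.37 (n = 8). The shares were 2.24% ± 0.969 in KO:WT, 2.91% ± 1.42 in KO:HET and 7.77% ± 4.31 in KO:HOM livers (n = 8 each). KO:HOM livers ranged from 4.24% to 17.4%, above the KO:WT range of 0.771% to 3.61%. The share is a description without a test, because it is built from RNA levels already tested.

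Among the ester hydrolases, Lipa (ENSMUSG00000024781, chromosome 19, 34469712 to 34522163) was the most abundant of the 8 genes. DN:WT livers held 231, 296 and 306 CPM and DN:HOM livers 195, 201 and 234 CPM, so that 6 of 7 DN:HOM livers lay below the DN:WT range. Lipa fell by 0.44 ± 0.13 on the log2 scale in DN:HOM (adjusted p = 0.0034), and by 0.33 ± 0.13 with all 48 livers (adjusted p = 0.040). With library size alone the difference was -0.01 (adjusted p = 0.95). The knockout groups overlapped throughout, at 178, 231 and 481 CPM in KO:WT and 216, 236 and 340 CPM in KO:HOM, with a difference of -0.05 ± 0.12 (adjusted p = 0.82). KO:WT animal 23 held the 481 CPM, and the next KO:WT liver was at 268 CPM.

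Nceh1 (ENSMUSG00000027698, chromosome 3, 27236975 to 27338764), the non-lysosomal hydrolase, passed the test in neither study. Its levels were 34.5, 42.0 and 52.3 CPM in DN:WT and 29.5, 34.6 and 42.4 CPM in DN:HOM livers, a log2 difference of -0.22 ± 0.16 (adjusted p = 0.24). In the knockout they were 25.98, 38.2 and 71.1 CPM in KO:WT and 37.1, 46.8 and 50.6 CPM in KO:HOM, a difference of 0.02 ± 0.15 (adjusted p = 0.95). A pseudogene annotated within Nceh1 on the same strand, Gm37191, shares no exon bases with it.

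The lysosomal exit pair did not move together. Npc2 (ENSMUSG00000021242, chromosome 12, 84801334 to 84820617) was at 45.8, 49.2 and 68.5 CPM in DN:WT and 80.2, 87.3 and 106 CPM in DN:HOM livers, with no overlap among the 46 livers. With the liver labelled DN:WT animal 10 (83.4 CPM) and that labelled DN:HOM animal 12 (53.03 CPM) the groups overlap. Npc2 rose by 0.82 ± 0.12 on the log2 scale, 1.76-fold (adjusted p = 2.6e-07), and by 0.62 ± 0.13 with all 48 livers (adjusted p = 0.00034). In the knockout, Npc2 was at 52.5, 59.4 and 66.7 CPM in KO:WT and 60.1, 73.7 and 99.3 CPM in KO:HOM livers. There it rose by 0.35 ± 0.12 (adjusted p = 0.028), and 7 of 8 KO:HOM livers lay above the KO:WT range. This call is lost with all 48 livers, where the difference is 0.35 ± 0.13 with an adjusted p of 0.076. Npc2 shares 593 exon bases with Isca2 on the opposite strand. Strand-specific counts were used here, and how much signal of Isca2 remains in them was not tested.

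Npc1 (ENSMUSG00000024413, chromosome 18, 12322749 to 12369550), the membrane partner, did not pass the test in either homozygous comparison. DN:WT livers held 114, 121 and 161 CPM and DN:HOM livers 97.6, 114 and 147 CPM, a log2 difference of -0.16 ± 0.099 (adjusted p = 0.16). With library size alone the sign turned and the call appeared, at 0.26 (adjusted p = 0.010). With counts of both strands together it was -0.31 (adjusted p = 0.015), and Npc1 shares 1086 exon bases with Rmc1 on the opposite strand. KO:WT livers held 145, 163 and 188 CPM and KO:HOM livers 127, 156 and 177 CPM, a difference of -0.08 ± 0.093 (adjusted p = 0.60).

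Stard4 (ENSMUSG00000024378, chromosome 18, 33332197 to 33346942), the sterol carrier, fell in both studies. Its levels were 72.8, 88.0 and 122 CPM in DN:WT and 21.6, 26.9 and 35.3 CPM in DN:HOM livers, so the highest DN:HOM liver of the 46 held less than the lowest DN:WT liver. Stard4 fell by 1.71 ± 0.19 on the log2 scale (adjusted p = 2.0e-10), to 0.306 times the DN:WT level. The liver labelled DN:WT animal 10 was at 33.6 CPM and the liver labelled DN:HOM animal 12 at 95.4 CPM, and with them the fall was 1.22 ± 0.24 (adjusted p = 0.00013). KO:WT livers held 83.6, 96.3 and 128 CPM and KO:HOM livers 16.5, 46.01 and 76.2 CPM. The fall in KO:HOM was 1.15 ± 0.17 (adjusted p = 8.8e-06), also without overlap, to 0.449 times the KO:WT level.

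Osbpl3 (ENSMUSG00000029822, chromosome 6, 50270307 to 50433286), the oxysterol-binding protein relative, was called in the knock-in alone, though the test of the difference between the studies was not passed. Its levels were 15.97, 31.2 and 42.2 CPM in DN:WT and 62.2, 107 and 125 CPM in DN:HOM livers, with no overlap among the 46 livers. Osbpl3 rose by 1.73 ± 0.34 on the log2 scale, 3.32-fold (adjusted p = 2.2e-05), and by 1.21 ± 0.35 with all 48 livers (adjusted p = 0.0048). The liver labelled DN:WT animal 10 was at 108 CPM and the liver labelled DN:HOM animal 12 at 36.5 CPM. In the knockout the groups overlapped, at 13.3, 30.5 and 78.9 CPM in KO:WT and 36.7, 56.5 and 80.9 CPM in KO:HOM, a difference of 0.64 ± 0.31 (adjusted p = 0.14). The KO:WT livers differed among themselves, with a coefficient of variation of 66.6% against 28.3% in KO:HOM.

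**Figure D2:**
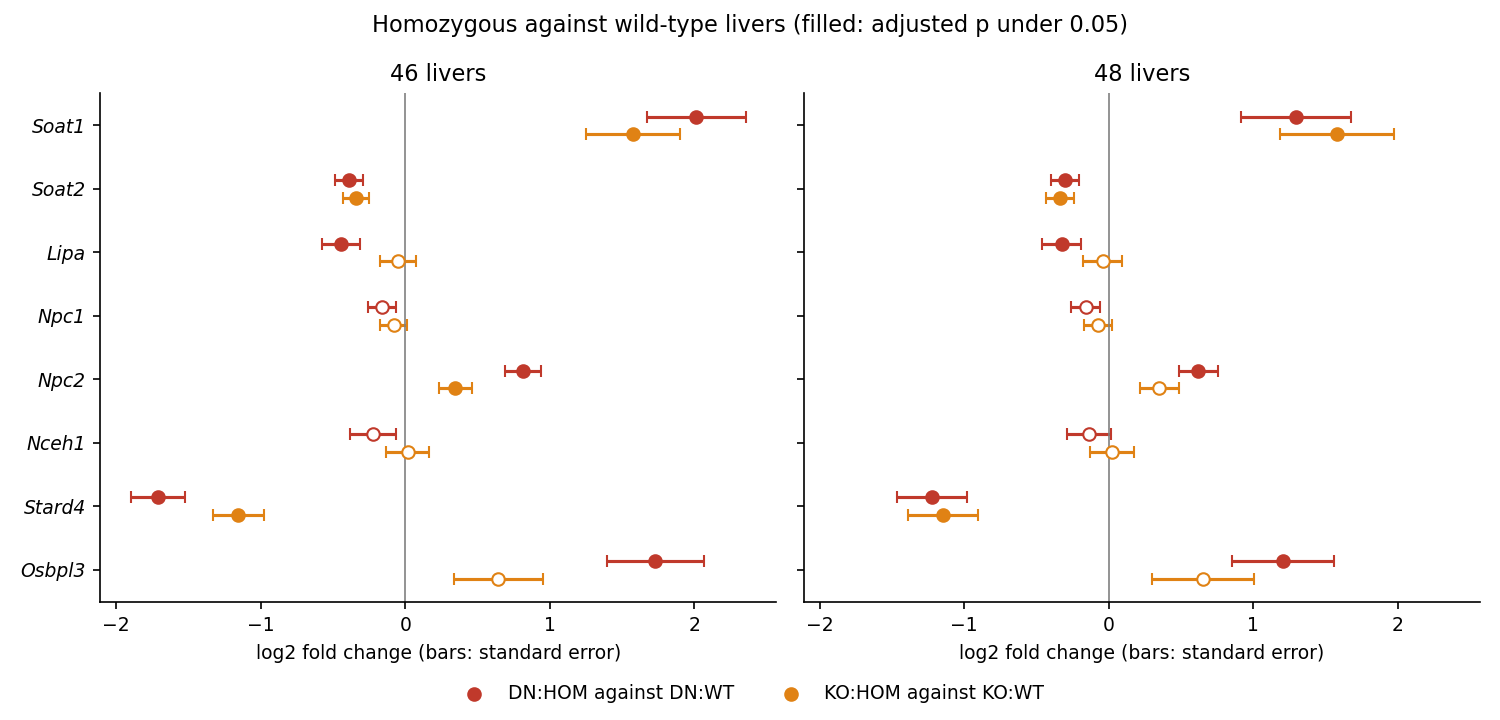
Log2 fold change of each gene in homozygous against wild-type livers of the same study (horizontal axes, bars the standard error), with 46 livers on the left and 48 on the right. Filled points passed an adjusted p under 0.05. Soat1, Npc2 and Osbpl3 lie right of 0 and Stard4 far to the left in both panels, and the 6 called knock-in values lie nearer to 0 with all 48 livers (Soat1 at 1.30 against 2.01).

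The difference of the homozygous effects, knock-in minus knockout, passed the test for 1 of 8 genes, where 34.7% of all genes passed. That gene was Npc2, with a difference of 0.47 ± 0.17 on the log2 scale (adjusted p = 0.026). Osbpl3 (1.09 ± 0.45, adjusted p = 0.056), Stard4 (-0.56 ± 0.25, adjusted p = 0.082) and Lipa (-0.39 ± 0.18, adjusted p = 0.082) did not pass. Soat1 had a difference of 0.44 ± 0.46 (adjusted p = 0.50), with an error as large as the difference itself. With all 48 livers none of the 8 passed (10.5% of all genes did), 0 of 8 also passed with DESeq2, 0 had an unadjusted p under 0.05, and the Npc2 difference was 0.27 (adjusted p = 0.37).

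Heterozygous livers gave no call among the 8 genes in either study. In DN:HET against DN:WT 2.3% of all genes were called with 46 livers and 0.25% with 48. Of the 8 genes, 0 were called by edgeR or by DESeq2, and 5 had an unadjusted p under 0.05 in both tools (Soat1, Soat2, Npc1, Npc2 and Stard4). With all 48 livers that count was 1, Soat2. The share of all genes with an unadjusted p under 0.05 was not worked out, so these unadjusted counts are not read as an effect. In KO:HET against KO:WT 0.0191% of all genes were called, and 0 of 8 genes were called or had an unadjusted p under 0.05 in either tool. The Soat1 difference was 0.93 ± 0.33 in DN:HET (adjusted p = 0.14) and 0.44 ± 0.33 in KO:HET (adjusted p = 0.86).

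The Soat1 levels of DN:HET livers were uneven. Soat1 was at 16.3 CPM in DN:HET animal 4 and 20.6 CPM in animal 22, within the DN:HOM range, and at 3.39 to 7.77 CPM in the other 6. Npc2 was likewise at 86.0 and 90.3 CPM in these livers, against 43.4 to 65.2 CPM in the other 6. Stard4 was lowest there, at 49.6 and 51.5 CPM, and above the other 7 DN:HOM livers, leaving out the liver labelled DN:HOM animal 12. Osbpl3 was not raised with them, at 17.01 and 19.8 CPM in a group with a median of 28.4 CPM. These livers were picked out after their values were seen, so no test was made of them.

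The wild-type livers of the 2 studies were compared to see how far their levels can be set side by side, and 12% of all genes were called. Soat2 was higher in DN:WT than in KO:WT livers by 0.41 ± 0.093 (adjusted p = 0.0022), and Npc1 was lower by 0.34 ± 0.096 (a log2 difference of -0.34, adjusted p = 0.013). The other 6 genes did not pass. Soat2 levels of DN:HOM (median 50.2 CPM) and KO:WT livers (median 48.7 CPM) were close, although DN:HOM lay below its own wild types.

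Levels were set in order only per kilobase of canonical transcript. In DN:WT livers Lipa was highest at 95.2 ± 10.1 CPM per kilobase (SD, n = 7), followed by Soat2 (27.5 ± 4.25), Npc1 (24.3 ± 3.17), Stard4 (17.2 ± 3.72), Npc2 (12.9 ± 1.95), Osbpl3 (9.46 ± 2.66), Nceh1 (9.10 ± 1.41) and Soat1 (0.527 ± 0.0842). The standard deviations of Soat2 and Npc1 overlapped, as did those of each neighbouring pair from Stard4 down to Nceh1. In DN:HOM livers Lipa was still highest (69.4 ± 4.78), followed by Osbpl3 (31.1 ± 6.80), Npc2 (22.5 ± 2.21), Npc1 (21.6 ± 3.30), Soat2 (20.8 ± 1.20), Nceh1 (7.74 ± 0.923), Stard4 (5.22 ± 0.895) and Soat1 (2.11 ± 0.226). Osbpl3, Npc2, Npc1 and Soat2 had overlapping spreads between neighbours there, and Stard4 had come down below Nceh1.

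Markers of other liver cells moved with genotype. Over all genes with 46 livers, 29.1% were called higher and 30% lower in DN:HOM, and 11.5% and 7.87% in KO:HOM. All 10 macrophage markers rose in DN:HOM and 8 of 10 in KO:HOM livers, with median log2 fold changes of 3.12 and 1.995. Of these 10, 9 rose in DN:HOM (median 1.87) and 7 in KO:HOM with all 48 livers. In the 46 livers their summed level was 108 to 212 CPM in DN:WT, 139 to 1111 in DN:HET, 1295 to 2084 in DN:HOM, 77.5 to 221 in KO:WT, 81.3 to 383 in KO:HET and 338 to 1355 in KO:HOM livers. None of the defining markers Adgre1, Cd68 and Csf1r was at 0 in any liver, and Ccr2 and Trem2 were at 0 in 1 liver each. The 5 Kupffer cell markers summed to 131 to 256 CPM in DN:WT and 1.56 to 3.50 in DN:HOM, and to 73.97 to 299 in KO:WT and 21.7 to 66.1 in KO:HOM livers, again of the 46. Their sums were 134 to 598 CPM in DN:HET and 62.3 to 256 CPM in KO:HET. DN:HET animals 4 (552 CPM) and 22 (598 CPM) had the highest sums of their group, unlike DN:HOM livers. The liver labelled DN:WT animal 10 held 2007 CPM of macrophage and 3.19 CPM of Kupffer cell markers, and the liver labelled DN:HOM animal 12 held 121 and 151 CPM, each within the range of the opposite group. The hepatocyte marker Tf was not found by its symbol and is left out. Of the 7 hepatocyte markers found, 5 fell in DN:HOM and 6 in KO:HOM, with Alb at -1.14 and -0.43 on the log2 scale, and with all 48 livers 2 of 7 were called in KO:HOM, Apoa1 and Hnf4a. Of the other lists, 5 of 5 cholangiocyte, 4 of 4 neutrophil, 5 of 6 stellate cell and 3 of 4 T cell markers rose in DN:HOM, with list medians of 3.58, 4.28, 1.54 and 1.57. The cholangiocyte markers summed to 29.95 to 70.4 CPM in DN:WT and 717 to 1065 CPM in DN:HOM, and the stellate cell markers to 169 to 242 and 653 to 904 CPM, in the 46 livers. Neutrophil markers summed to 3.34 to 6.47 CPM in DN:WT and 29.4 to 79.7 CPM in DN:HOM. T cell markers summed to only 0.765 to 1.63 and 2.32 to 3.98 CPM, so their rises rest on low levels. In KO:HOM 1 of 5 cholangiocyte, 3 of 4 neutrophil, 4 of 6 stellate cell and 4 of 4 T cell markers rose. With all 48 livers the DN:HOM medians of the cholangiocyte and neutrophil lists were 2.27 and 2.15 and the T cell count was 1 of 4, and in KO:HOM 1 of 4 neutrophil and 2 of 6 stellate cell markers were called, and 0 of 5 cholangiocyte markers by edgeR or DESeq2 (1 at an unadjusted p under 0.05). Endothelial markers gave 1 rise and 3 falls of 5 in DN:HOM (3 falls alone with all 48 livers), and B cell markers 1 fall of 3, which was not called with all 48. The part of these markers in the changes of the 8 genes was not tested.

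Liver by liver, Soat1 and Npc2 were high where the summed macrophage markers were high. After each group's mean was subtracted, Soat1 had r = 0.92 and rho = 0.89 with the summed markers over 46 livers, and Npc2 r = 0.84 and rho = 0.78, both on log2 levels. The 2 livers farthest out were DN:HET animals 4 and 22, with macrophage sums of 1076 and 1111 CPM, and without them r was 0.89 for Soat1 and 0.75 for Npc2 (44 livers). Within single groups r for Soat1 ran from 0.38 in DN:WT to 0.99 in DN:HET. Npc1 ran the other way (r = -0.51, and -0.35 without those livers), Stard4 weakly so (r = -0.32, and -0.19), and Soat2, Lipa, Nceh1 and Osbpl3 lay between -0.16 and -0.14 (-0.07 to -0.03 without those livers). Within single groups r for Npc2 ran from 0.62 to 0.93 and for Npc1 from -0.71 to -0.25, while the other 5 genes took both signs, from -0.77 (Nceh1 in DN:HET) to 0.48 (Lipa in KO:HET). These are descriptions across livers whose values share one library and one scaling. In the knockout, KO:HOM animals 8 and 11 had the highest macrophage sums (1355 and 1032 CPM), the highest Soat1 and the highest Npc2 (99.3 and 95.0 CPM), while their Osbpl3 (37.9 and 38.7 CPM) was among the lowest of the group.

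**Figure D3:**
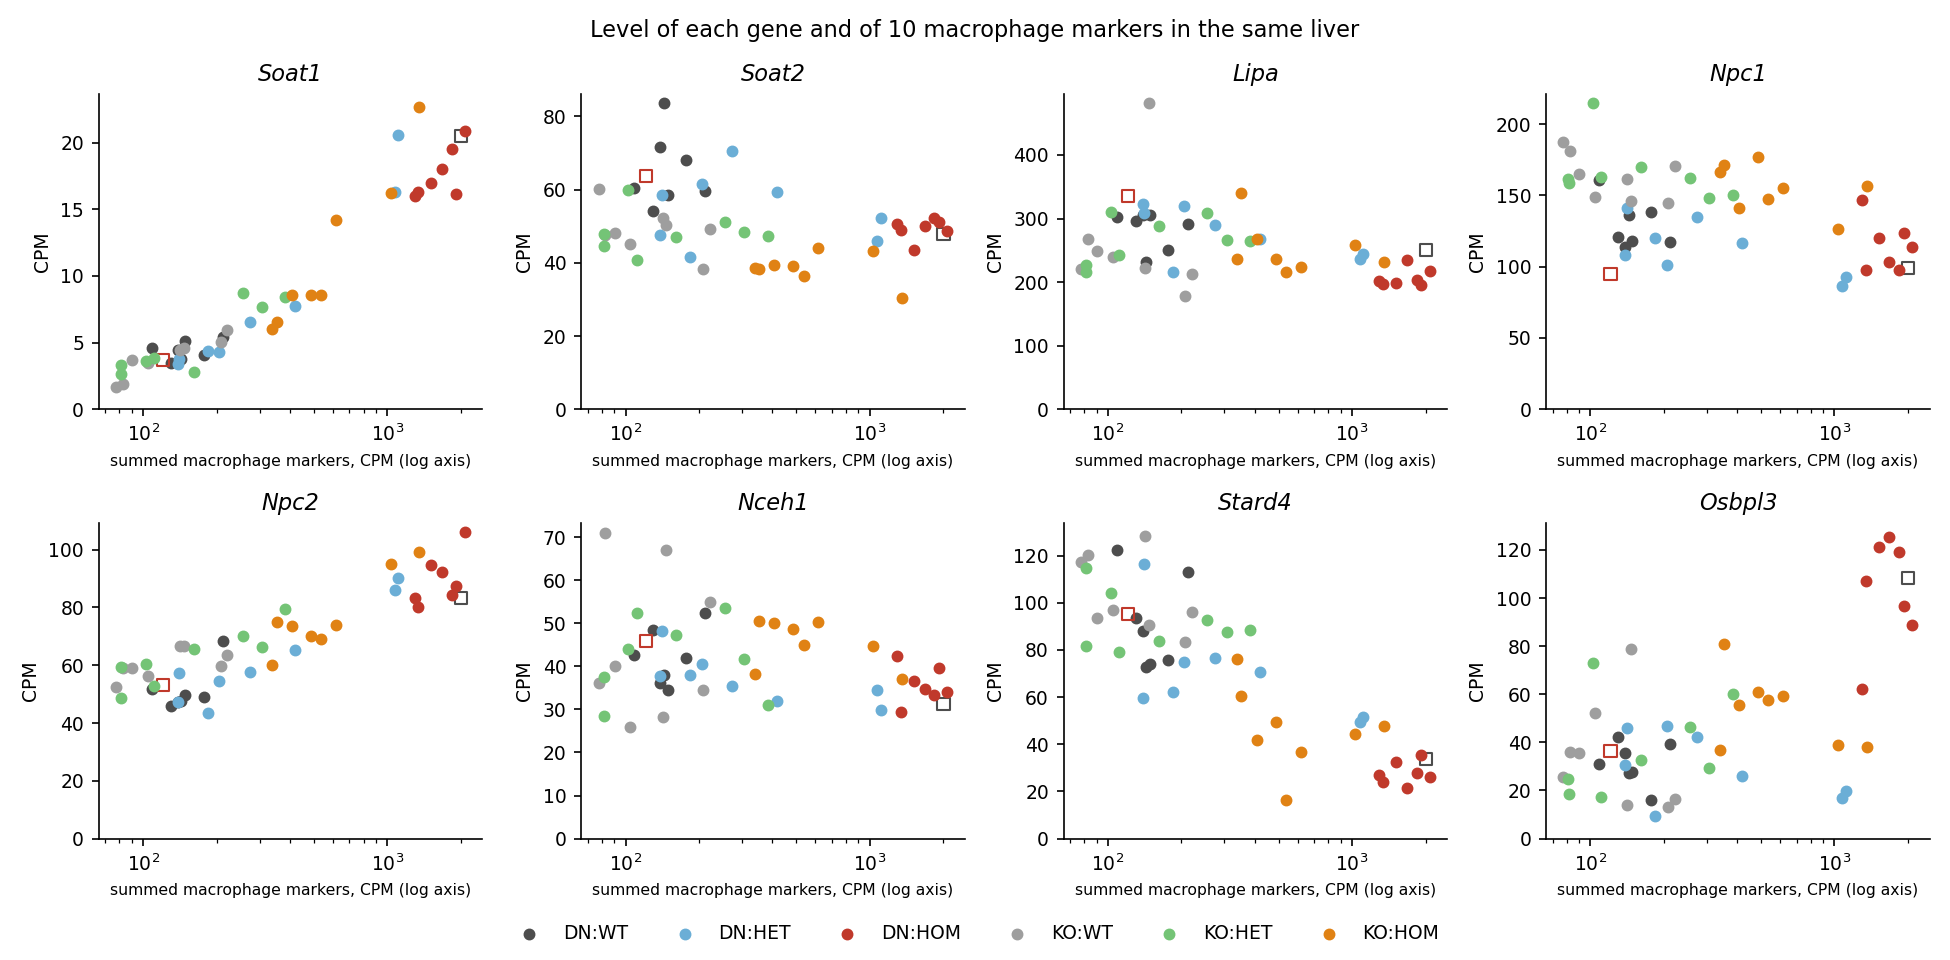
CPM of each gene (vertical axes, from 0) against the summed CPM of 10 macrophage markers in the same liver (horizontal axes, log scale). Points are livers coloured by group, and open squares the livers labelled DN:WT animal 10 and DN:HOM animal 12. Soat1 climbs along the axis over the livers together, from 1.65 CPM to 22.6 CPM, and least within DN:WT, Npc2 does so over a narrower range, and Osbpl3 is high in DN:HOM livers but not in DN:HET animals 4 and 22.

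The genes most like each member across livers were ranked by the same group-centred correlation over 46 livers and 11712 genes. Nearest to Soat1 were Laptm5 (r = 0.93), Ptprc (0.92), the leukocyte antigen CD45, and Lyz2 (0.91), a lysozyme gene of myeloid cells that is also among the 10 macrophage markers. Npc2 was nearest to Oxct1 (0.86), Slc43a2 (0.86) and Pkm (0.86), which include enzymes of ketone body use and glycolysis. Stard4 was nearest to Uox (0.74), the urate oxidase of hepatocytes, and Fdft1 (0.68), the squalene synthase. Lipa was nearest to Acot2 (0.85), Tmem135 (0.83) and Aplp2 (0.83), and Osbpl3 to Ermp1 (0.78), E330011O21Rik (0.78) and Gal3st1 (0.78). For Npc1 they were Brap (0.75), Slc38a4 (0.74) and Tprkb (0.73), for Nceh1 Fitm2 (0.79), Bcl2l13 (0.75) and Tmtc2 (0.73), and for Soat2 Mettl27 (0.63), Dixdc1 (0.62) and Gstt2 (0.60). Among the members themselves the closest pairs were Soat1 with Npc2 (0.79) and Lipa with Osbpl3 (0.74).

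Other ester enzymes, not all of them specific to sterol esters, were followed in the same fits. Of 6 tested (Cel did not pass the filter), 5 fell in DN:HOM and 0 rose, with a list median of -1.04 against -0.01 over all genes. These were Ces1f (-1.81), Lipe (-1.23), the hormone-sensitive lipase, Aadac (-1.13), Ces1d (-0.96) and Lcat (-0.55), the plasma esterifying enzyme, of which Lcat was no longer called with library size alone (-0.12). Over all genes, 30% were called lower in DN:HOM, and 7.87% lower and 11.5% higher in KO:HOM, with 46 livers. In KO:HOM livers Aadac (-0.34) and Ces1f (-0.50) fell and Ces1g rose by 1.02, with a list median of 0.00 against -0.02 over all genes, and with all 48 livers 1 rose and 0 fell. Counts of the Ces1 genes are uncertain, since their sequences are close to one another. Stard4 belongs by its regulation with the SREBP-2 readouts, of which 4 are given and do not stand for the whole list. Of these, Insig1 (-2.51) and Hmgcs1 (-1.40) fell in DN:HOM, while Sqle (-0.11) and Srebf2 (-0.05) were not called, though Srebf2 was called at 0.38 with library size alone. In KO:HOM Sqle (-1.17), Insig1 (-1.10), Hmgcs1 (-0.59) and Srebf2 (-0.29) fell with 46 livers. With 48 livers Hmgcs1 and Sqle were no longer called, and with library size alone Insig1 was called and the other 3 were not.

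Of the relatives of Osbpl3, 10 of 11 were tested, and in DN:HOM 3 rose and 7 fell, with a median of -0.31. Over all genes 59.1% were called in DN:HOM and 19.4% in KO:HOM with 46 livers, and 48% and 12.9% with 48. The counts that follow are to be read beside these shares. Osbpl7 rose by 1.54 and Osbpl5 by 0.74, and Osbp fell by 0.48, a fall that was not called with library size alone (-0.05). With 48 livers 1 rose and 7 fell. In KO:HOM 1 rose and 2 fell with 46 livers, while with 48 livers 0 were called by edgeR (4 at an unadjusted p under 0.05) and 1 by DESeq2. Osbp2 fell by 2.84 in DN:HOM and rose by 1.16 in KO:HOM. Among the StAR-related carriers other than Stard4, Stard5 fell by 0.76 in DN:HOM while Star and Stard3 did not pass, and 0 of 3 were called in KO:HOM by edgeR or DESeq2, with 0 at an unadjusted p under 0.05. The membrane-contact genes gave 1 rise (Gramd1a, 0.54) and 2 falls (Gramd1c, -0.86, and Vapb, -0.24, which turned to 0.19 with library size alone) of 6 in DN:HOM, and 1 fall (Tmem97, -0.40) in KO:HOM. Of the lysosomal membrane genes and the TFEB family, Lamp1 (0.22), Mitf (0.68) and Tfe3 (0.43) rose and Lamp2 fell in DN:HOM (-0.33, but 0.10 and not called with library size alone), and 0 of 6 were called in KO:HOM by edgeR or DESeq2, with 1 at an unadjusted p under 0.05.

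LXR readouts divided by gene. In DN:HOM livers Srebf1 (-3.18), Abcg5 (-2.82) and Abcg8 (-2.78), the sterol exporters to bile, fell, Abca1 fell by 0.27, but was at 0.16 with library size alone, and Abcg1 (1.74) and Mylip (0.92) rose. In KO:HOM livers Abcg5 (-1.04), Abcg8 (-0.87) and Srebf1 (-0.71) fell and Abcg1 (1.37) and Abca1 (0.24) rose. With all 48 livers Abcg8 (adjusted p = 0.071) and Srebf1 (adjusted p = 0.20) were no longer called in KO:HOM.

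**Figure D4:**
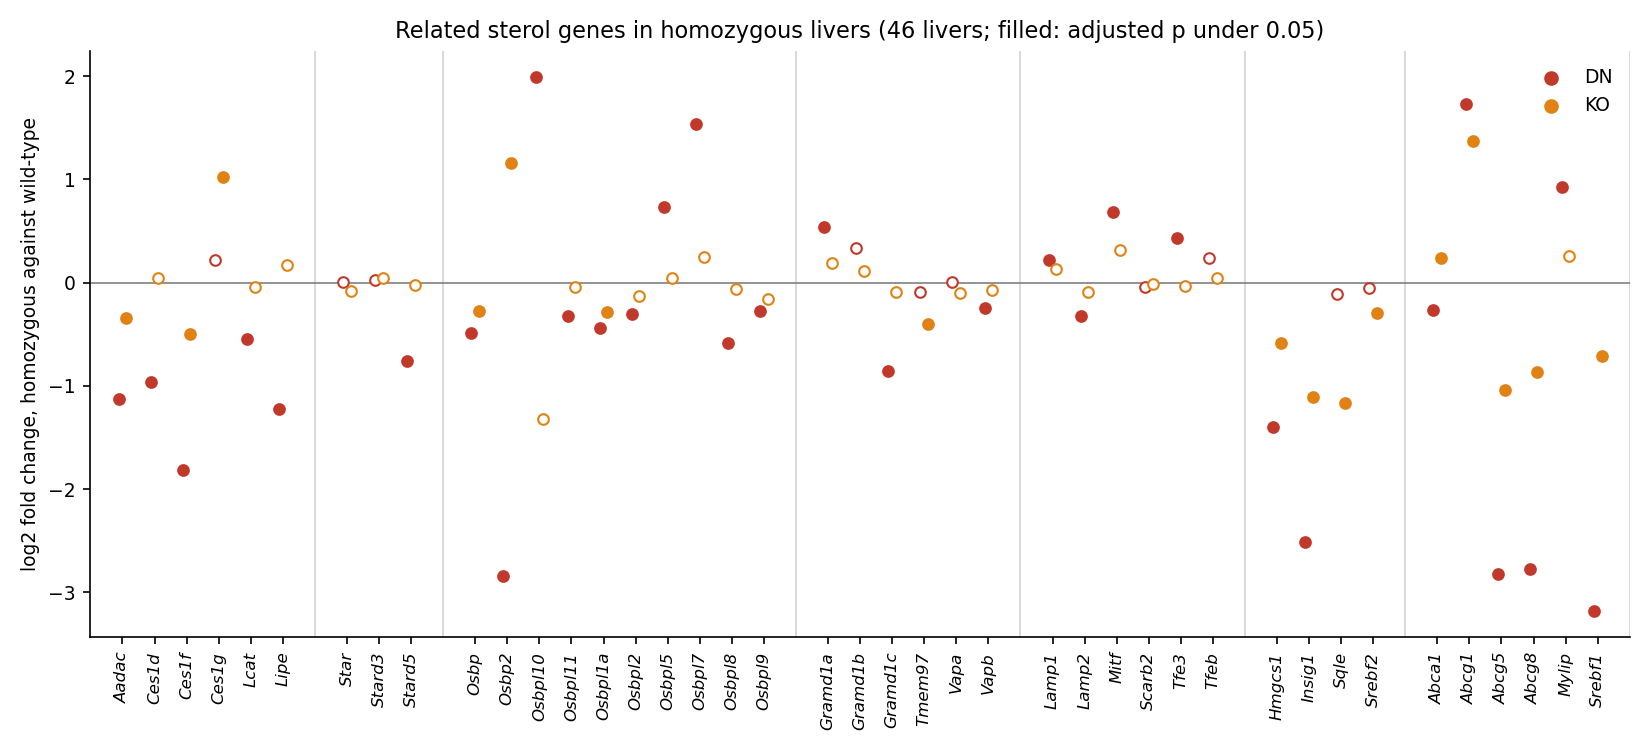
Log2 fold change (vertical axis) of genes from 7 related lists in DN:HOM against DN:WT and KO:HOM against KO:WT livers, 46 livers. Filled points passed an adjusted p under 0.05, and vertical lines part the lists, in order other ester enzymes, StAR-related carriers, oxysterol-binding protein relatives, membrane-contact genes, lysosomal genes, SREBP-2 readouts and LXR readouts. The SREBP-2 readouts shown lie below 0 in both studies, down to -2.51 for Insig1 in the knock-in.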

How the data were processed

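Liver mRNA was sequenced from stranded libraries of 48 mice. Per the labels, the authors aligned reads with STAR 2.5.0a to GRCm39, and deposited raw counts per gene unstranded and by strand. The sense-strand column, 6.97 to 8.62 times the other, was used. Reads that named no gene (24.0 to 35.0%) were left out. Names came from GENCODE (54749 of 55416 identifiers found).

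Genes were tested in edgeR 4.0.16 (R 4.3.3) with filterByExpr, TMM scaling, 6 group means and the quasi-likelihood test, adjusted by Benjamini-Hochberg at 0.05, and checked on simulated data. The main fit leaves out DN:WT animal 10 and DN:HOM animal 12: for 7 of 8 bile acid genes all 22 knock-in source values match counts scaled over the other 46 livers (within 0.01%), and at most 4 of 22 with all 48. CPM in the text are TMM-scaled over 48 livers. Log2 CPM used a prior count of 2. Named genes were the members, Nr1h3, the lists, and 3 nearest genes per member with a mean log2 CPM above 1, and some genes within this rule are not reported here. The members and lists were chosen with earlier results of these data known. Settings tried were DESeq2 1.42.0, upper-quartile scaling, library size alone, 2 other low-count filters, unstranded counts, fits of each study or of only the groups compared, leaving out 2 shallow livers, and a threshold of 0.01, and, added after seeing the data, DESeq2 and library size alone each with all 48 livers, and union exon lengths. Depth limits Soat1, counted with as few as 13 reads.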

Additional observations from a re-analysis of the deposited data

Results flagged for a closer look

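Among 48 combinations of a gene and a group, 4 held a liver that stood apart from the others of its group, and about 1 in 20 would be marked by chance. Soat2 was lowest in DN:HOM animal 19, at 43.5 CPM. Lipa was highest in KO:WT animal 23, at 481 CPM. Npc1 was highest in KO:HET animal 16, at 215 CPM. Npc2 was highest in DN:WT animal 17, at 68.5 CPM. The homozygous effect on Npc2 differed between the studies, knock-in minus knockout, by 0.47 on the log2 scale with 46 livers, and this was not called with all 48.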

How the results depend on the processing

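Soat1, Npc2, Stard4 and Osbpl3 kept direction and call in DN:HOM under all 12 other settings, as did Soat1 and Stard4 in KO:HOM. With library size alone, Soat2 in DN:HOM turned to 0.039 with 46 livers and 0.031 with 48, and Npc1 to 0.26. That scaling made 9283 of 11021 calls in DN:HOM higher, against 4579 of 9292. In KO:HOM, 2 of the 8 genes were called with all 48 livers and library size alone (12.5% of all genes). For the difference between studies, 0 of 8 genes were called with all 48 livers under TMM, library size alone or DESeq2 (10.5%, 16.1% and 12.9% of all genes), and 0 at an adjusted p under 0.01 (23.6%). With upper-quartile scaling, library size alone or only the compared groups the count was 2 of 8, Npc2 and Osbpl3 (35%, 46.2% and 36.9% of all genes). Between wild types, 1 was called at an adjusted p under 0.01 (5.98%). The Soat1 share was 3.04% in DN:WT with all 48 livers and 7.40% in DN:HOM with union exon lengths. Over all genes, all 48 livers gave 2016 calls in KO:HOM (3048 with 46), 1636 for the difference (5456) and 39 in DN:HET (361). In DN:HET, DESeq2 gave 617 calls with 46 livers and 110 with all 48, and a fit of only the compared groups gave 5 with 46. In KO:HET DESeq2 gave 10 against 3, both with 46 livers. The cause of these changes was not tested. Depth limits Soat1 most. No paired analysis was possible because the labels give each liver an animal number used once in its study, and nothing that pairs livers of different groups.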
